A study of Homo sapiens with 22 samples.

Results

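Genes that supply amino acids to the cell and genes of the ATF4 and unfolded protein responses were followed in human tumour cells of H3122 xenografts. The group held 35 human genes listed by symbol, and all were found among the 58735 human genes measured. By role they were 9 plasma membrane transporters, 11 enzymes of amino acid and one-carbon metabolism, 9 genes of the ATF4 branch and 6 genes of the endoplasmic reticulum (ER) branch. Expression was given as FPKM, fragments per kilobase of transcript scaled to the size of the library. Of the 35, 34 reached 1 FPKM in at least 3 samples and were tested among 16029 genes. ASNS, which makes asparagine, stayed at 0.0344 to 0.802 FPKM in the 22 samples and was not tested.

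H3122 is an ALK-positive human non-small cell lung cancer line, so every tumour came from the same line. It was grown as xenografts in NSG mice, which lack T, B and NK cells but keep myeloid cells, or in hHGF-NSG mice, an NSG background with humanized HGF. Tumours were therapy-naive or had been treated for 2 or 6 weeks with alectinib, an inhibitor of the ALK kinase. The hHGF-NSG host gave 3 naive tumours, 4 after 2 weeks and 3 after 6 weeks, and the NSG host gave 4 tumours in each state. The labels name no dose, no age and no promoter for the HGF allele, and they do not say that each sample came from its own animal. The p-values therefore measure the spread between these samples, which may be technical.

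Cells take up large neutral amino acids through an exchanger made of SLC7A5 and SLC3A2, and SLC3A2 also carries the cystine transporter SLC7A11. Serine and glycine can be made from a glycolytic intermediate by PHGDH, PSAT1 and PSPH and then feed folate-bound one-carbon units through SHMT2, MTHFD2 and MTHFD1L. When amino acids run short, or when unfolded protein gathers in the ER, kinases phosphorylate eIF2, general translation falls and the transcription factor ATF4 is made. ATF4 induces many transporters, synthesis enzymes and tRNA synthetases, while the XBP1 and ATF6 arms induce ER chaperones. ATF4 itself is controlled mostly through translation, which RNA levels do not show.

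Human libraries held 10688632 to 19065656 reads and 895826 to 5766509 mouse reads were counted in 20 of the 22. The mouse share of reads was 5.50% to 13.5% in naive tumours, 8.71% to 20.2% at 2 weeks and 16.9% to 29.0% at 6 weeks. Human HGF had 43 reads in the library labelled NSG naive replicate 1, against 0 to 6 in the other 11 NSG libraries and 13 to 79 in the 10 hHGF-NSG libraries. Counts of human members called against NSG naive tumours are given with and without it. Calls that changed when it was left out are given for some genes, and all other values of NSG naive tumours include it. Epithelial EPCAM stood at 223 to 349 FPKM in all 22 human libraries. Among the 9 epithelial markers, mean KRT8 was 938 FPKM in hHGF-NSG naive tumours, 318 after 2 weeks and 349.8 after 6 weeks, and 1002, 371 and 307 in NSG hosts. Mean NKX2-1, a lung lineage factor, was 79.8, 248 and 321 FPKM in hHGF-NSG and 85.8, 228 and 235 in NSG hosts. In the human table the 7 leukocyte markers summed to 0.424 to 2.95 FPKM, with PTPRC at 0.0159 or less, and the 3 erythroid markers to 0.790 or less. The 4 endothelial markers summed to 4.57 to 8.14 FPKM in naive tumours, 5.91 to 11.3 at 2 weeks and 7.71 to 19.9 at 6 weeks. The 7 fibroblast and mural markers summed to 9.47 to 102 FPKM in naive and 5.06 to 16.2 FPKM in treated tumours, nearly all of it COL1A1. The part of these shifts in the results was not tested.

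The promoters of several members carry the sequences that the ATF4 and ER stress factors are known to bind, and 7 are shown because they place each of those motifs next to the genes whose RNA is described below. They were read from RefSeq windows of GRCh38.p14 that reach 250 bases before each start, and 30 of the 35 members had a window. Each stretch is given 5′ to 3′ on the gene's strand. Capitals mark the motif, TGATGNAA or its reverse complement for the ATF4 element (ASNS, MTHFD1L, CHAC1, HERPUD1), CCAAT, a gap of 9 bases and CCACG, or the reverse complement, for the ER stress element (HSPA5, XBP1, HSP90B1), of which only the fixed letters are raised, and ATTGG, a gap of 1 base and CCACG for the ER stress element II, which is the second raised run in HERPUD1.
ASNS, chr7:97872438-97872518, minus strand: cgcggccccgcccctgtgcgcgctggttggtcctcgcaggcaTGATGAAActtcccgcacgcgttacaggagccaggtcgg
MTHFD1L, chr6:150866316-150866396, plus strand: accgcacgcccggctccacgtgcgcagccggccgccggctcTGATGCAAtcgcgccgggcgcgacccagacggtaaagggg
CHAC1, chr15:40953231-40953311, plus strand: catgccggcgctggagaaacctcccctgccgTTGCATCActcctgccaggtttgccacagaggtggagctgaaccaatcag
HERPUD1, chr16:56931952-56932052, plus strand: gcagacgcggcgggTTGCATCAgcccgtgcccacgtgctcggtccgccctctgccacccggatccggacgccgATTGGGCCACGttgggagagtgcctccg
HSPA5, chr9:125241363-125241443, minus strand: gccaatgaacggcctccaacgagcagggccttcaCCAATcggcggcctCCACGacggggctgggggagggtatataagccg
XBP1, chr22:28800579-28800659, minus strand: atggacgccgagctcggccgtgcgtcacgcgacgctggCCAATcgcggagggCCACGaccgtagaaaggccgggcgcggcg
HSP90B1, chr12:103930210-103930350, plus strand: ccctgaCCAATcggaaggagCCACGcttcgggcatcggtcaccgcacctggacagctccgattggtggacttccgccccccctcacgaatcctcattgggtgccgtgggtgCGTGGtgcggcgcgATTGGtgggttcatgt

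Searched on both strands, the ATF4 element stood in 1104 of 35116 RefSeq windows, or 3.14%, and in 1061 of 27305 genes, or 3.89%. Of the 30 members with a window, 6 had it (SLC1A5, ASNS, MTHFD1L, ATF3, CHAC1 and HERPUD1). The ER stress element was rarer, in 26 windows or 0.0740% and 25 genes or 0.0916%. Of those genes 3 were members, XBP1, HSPA5 and HSP90B1. The ER stress element II stood in 18 windows or 0.0513% and 18 genes or 0.0659%, HERPUD1 among them. A match is only a match of letters. The 6 members with an ATF4 element did not move as one group: SLC1A5 and MTHFD1L fell in both hosts, ATF3 and CHAC1 passed no test against naive, HERPUD1 fell in 3 of the 4 comparisons with naive, and ASNS was too low to test. All 3 members with an ER stress element fell in both hosts at both times, but so did 20 of the 34 tested members in all. HERPUD1, with the ER stress element II, was not called in hHGF-NSG hosts at 6 weeks. Whether a motif goes with a change was not tested.

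Most of the group was lower in treated tumours, in either host and at either time. A gene was called when its adjusted p was under 0.05 in a limma fit of log2(FPKM + 1), and a log2 change below is on that scale, which understates changes of genes near 0. At 2 weeks against naive, 23 of 34 tested members were lower and 2 higher in hHGF-NSG hosts, where 26.6% of all tested genes were lower and 27.5% higher. In NSG hosts 23 were lower and 2 higher, against 28.0% and 28.1% of all genes. By 6 weeks the hHGF-NSG count was 23 lower and 2 higher (25.5% and 25.9% of all genes), and the NSG count was 24 lower and 2 higher (28.8% and 28.8%). The median member stood at a log2 change of -0.65 and -0.75 at 2 weeks in hHGF-NSG and NSG hosts and at -0.68 and -0.93 at 6 weeks, where the median of all genes was 0.02 to 0.03. These counts describe a listed group and do not test it. In bulk tissue, fewer cells that express a gene and less RNA per cell cannot be told apart.

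**Figure D1:**
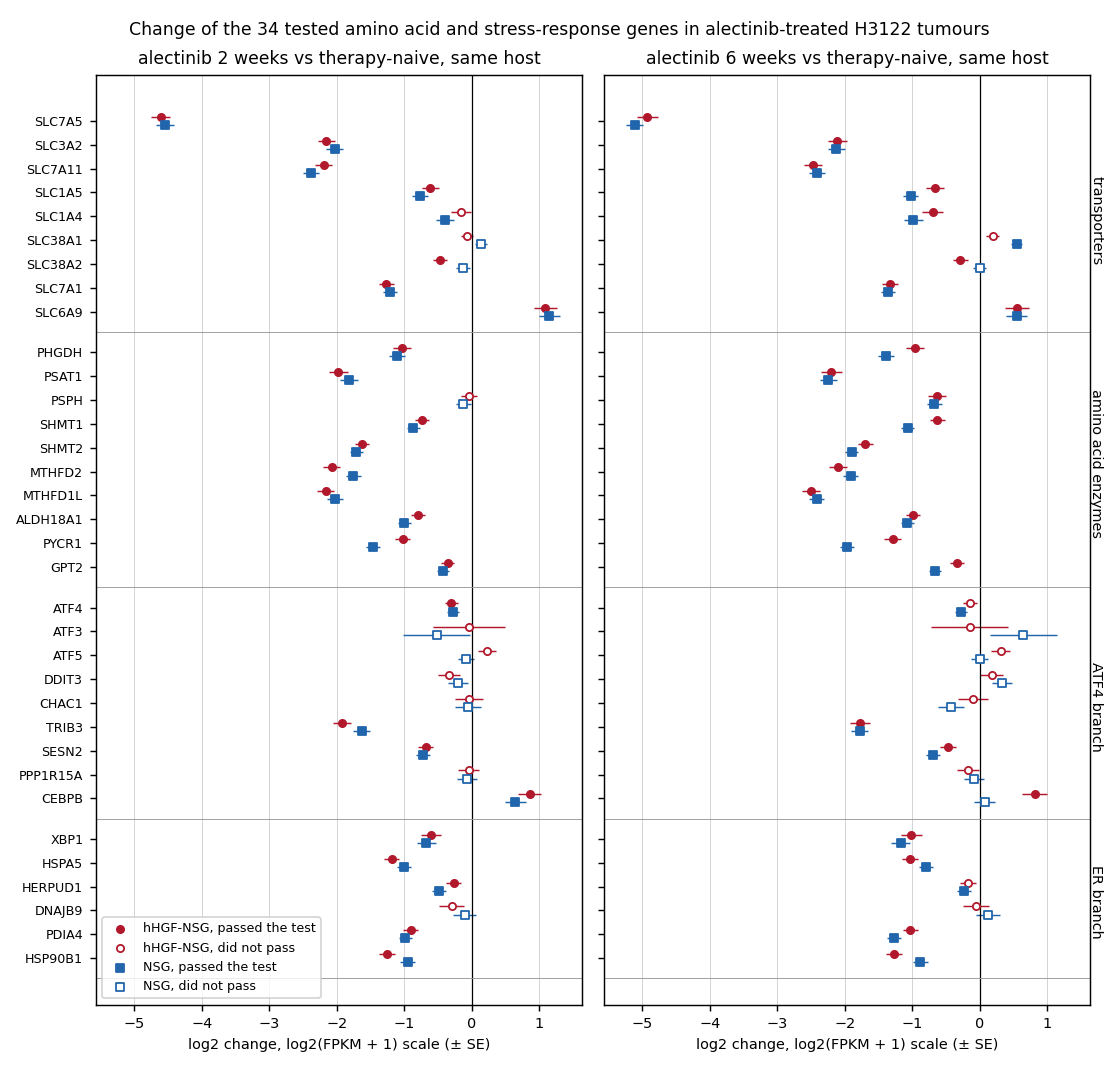
Log2 change on the log2(FPKM + 1) scale against naive tumours (x axis), with its standard error as a bar, for each tested member, ordered by role down the page, at 2 and 6 weeks in hHGF-NSG and NSG hosts, with filled points for genes that passed the test. SLC7A5 lies farthest to the left, near -5, most transporters and enzymes lie below 0, and the ATF4 branch straddles 0.

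The authors' scaling bears on the smaller changes. The size that the authors divided by was 0.876 to 0.937 of the total human reads in naive and 0.986 to 1.111 in treated libraries. Scaled by total reads instead, the median of all genes became 0.22 in hHGF-NSG and 0.22 in NSG hosts at 2 weeks, and 0.16 and 0.20 at 6 weeks. Of all called genes, 67.8% and 68.7% were then higher at 2 weeks and 63.1% and 65.7% at 6 weeks, against 50.9%, 50.1%, 50.4% and 49.9% with the authors' scaling. Of the members, 19 and 20 were then lower at 2 weeks and 21 and 22 at 6 weeks, with 3 and 3, and 4 and 3, higher. Of all 16029 tested genes, 2912 and 2906 were then lower and 6130 and 6388 higher at 2 weeks in hHGF-NSG and NSG hosts. By 6 weeks 3118 and 3229 of them were lower and 5324 and 6188 higher. The calls lost were those of ATF4, of SLC38A2 in hHGF-NSG hosts, of SLC1A4 in NSG hosts at 2 weeks, of HERPUD1 in hHGF-NSG hosts at 2 weeks and in NSG hosts at 6 weeks, and of GPT2 in both hosts at 2 weeks and in hHGF-NSG hosts at 6 weeks (adjusted p 0.0601 to 0.909). The calls gained, all higher, were those of ATF5 in hHGF-NSG hosts at 2 and 6 weeks (log2 changes 0.45 and 0.47, adjusted p 0.00282 and 0.00365), of SLC38A1 in NSG hosts at 2 weeks (0.40, adjusted p 0.000885) and in hHGF-NSG hosts at 6 weeks (0.36, adjusted p 0.00646), and of DDIT3 in NSG hosts at 6 weeks (0.53, adjusted p 0.00367).

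The 2 hosts shared most calls. At 2 weeks 22 members were called lower in both, where 23.2% of all genes were, and at 6 weeks again 22, where 21.9% of all genes were. At least 2-fold lower in both hosts were 12 members at 2 weeks (5.73% of all genes) and 12 at 6 weeks (5.90%). In all 4 comparisons 20 members fell, and with the authors' scaling 6 were called in none: ATF3, ATF5, CHAC1, DDIT3, DNAJB9 and PPP1R15A. The shares of all genes that fell in all 4 comparisons, or were called in none, are not given here. Among the enzymes 9 of 10 were lower at 2 weeks and 10 of 10 at 6 weeks in either host. In the ATF4 branch 3 of 9 were lower in hHGF-NSG and 3 in NSG hosts at 2 weeks, and 2 and 3 at 6 weeks. Of all genes, 26.6% and 28.0% were lower at 2 weeks in hHGF-NSG and NSG hosts and 25.5% and 28.8% at 6 weeks. The ATF4 branch counts lay near those shares.

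SLC7A5 (ENSG00000103257, chromosome 16, 87830023 to 87869488, minus strand, all positions in hg38), the light chain of the large neutral amino acid exchanger, had the largest change of the group. In hHGF-NSG hosts SLC7A5 stood at 453, 414 and 443 FPKM in naive tumours, 16.8, 16.6, 17.1 and 17.2 after 2 weeks and 14.1, 14.9 and 11.4 after 6 weeks. Across NSG hosts it stood at 400.0, 279.6, 443 and 494 FPKM in naive tumours, 14.6, 15.9, 15.2 and 18.5 after 2 weeks and 11.8, 10.9, 9.47 and 9.74 after 6 weeks. Every treated tumour lay far below every naive one, with no overlap in either host. The log2 change was -4.61 ± 0.14 in hHGF-NSG and -4.55 ± 0.13 in NSG hosts at 2 weeks, and -4.92 ± 0.15 and -5.11 ± 0.13 at 6 weeks (SE, adjusted p 6.44e-17 to 1.73e-15). Relative to the naive mean the treated mean was 25.8-fold lower in hHGF-NSG and 25.2-fold lower in NSG hosts at 2 weeks, and 32.4-fold and 38.5-fold lower at 6 weeks. By mean FPKM SLC7A5 ranked 61 among protein-coding genes in hHGF-NSG naive tumours and 73 in NSG naive tumours, and between 2358 and 3826 in the treated groups.

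SLC3A2 (ENSG00000168003, chromosome 11, 62856102 to 62888875, plus strand), the heavy chain that brings SLC7A5 and SLC7A11 to the membrane, fell as well but kept a higher floor. In hHGF-NSG hosts SLC3A2 stood at 115, 96.7 and 108 FPKM in naive tumours, 23.6, 20.2, 23.96 and 24.6 after 2 weeks and 26.2, 25.2 and 20.4 after 6 weeks. The NSG tumours held 91.4, 75.6, 106 and 112 FPKM in naive tumours, 21.2, 27.2, 20.8 and 21.2 after 2 weeks and 20.9, 19.3, 23.5 and 20.8 after 6 weeks. Treated and naive tumours did not overlap, and the 2 treatment times covered much the same levels. In log2 terms SLC3A2 changed by -2.16 ± 0.13 in hHGF-NSG and -2.03 ± 0.12 in NSG hosts at 2 weeks, and -2.11 ± 0.14 and -2.12 ± 0.12 at 6 weeks (SE, adjusted p 5.77e-12 to 8.97e-11). In treated tumours SLC3A2 was thus above SLC7A5 in FPKM in every sample, whereas in naive tumours SLC7A5 was above SLC3A2 in every sample.

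SLC7A11, the light chain of the cystine and glutamate exchanger that feeds glutathione synthesis, fell in both hosts. SLC7A11 in hHGF-NSG hosts stood at 14.8, 19.8 and 13.9 FPKM in naive tumours, 3.08, 2.58, 3.23 and 2.08 after 2 weeks and 1.64, 2.29 and 2.35 after 6 weeks. Levels in NSG hosts were 15.7, 16.4, 14.03 and 15.4 FPKM in naive tumours, 2.19, 1.92, 2.08 and 2.34 after 2 weeks and 2.24, 1.65, 2.05 and 2.43 after 6 weeks. The highest treated tumour, at 3.23 FPKM, lay well under the lowest naive one, at 13.9 FPKM. The log2 change was -2.20 ± 0.13 in hHGF-NSG and -2.39 ± 0.12 in NSG hosts at 2 weeks, and -2.47 ± 0.14 and -2.41 ± 0.12 at 6 weeks (SE, adjusted p 6.8e-13 to 9.38e-12). SLC7A1, which imports arginine and lysine, ranged over 22.3 to 26.6 FPKM in naive tumours, 7.30 to 12.6 after 2 weeks and 8.10 to 9.78 after 6 weeks, without overlap between treated and naive tumours. Its log2 changes in hHGF-NSG and NSG hosts were -1.27 and -1.22 after 2 weeks and -1.33 and -1.36 after 6 weeks (adjusted p 8.58e-10 to 1.27e-08).

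The transporters of small neutral amino acids changed less. SLC1A5, an exchanger that carries glutamine, ranged over 87.5 to 134 FPKM in naive tumours, 57.6 to 77.6 after 2 weeks and 51.5 to 65.2 after 6 weeks, with log2 changes in hHGF-NSG and NSG hosts of -0.61 and -0.77 after 2 weeks and -0.66 and -1.02 after 6 weeks (adjusted p 1.67e-07 to 0.000258). SLC1A4, its serine-carrying relative, was lower at 6 weeks in both hosts, at log2 changes of -0.70 (adjusted p 0.000876) and -0.98 (adjusted p 3.39e-06). At 2 weeks SLC1A4 gave -0.16 in hHGF-NSG hosts (adjusted p 0.364) and -0.39 in NSG hosts (adjusted p 0.0184). The NSG call did not hold without NSG naive replicate 2 or NSG 2 weeks replicate 1 or 3 (adjusted p 0.0618 to 0.0669). SLC38A1 and SLC38A2, sodium-coupled importers of glutamine and alanine, were each called in 1 host with the authors' scaling. SLC38A1 rose in NSG hosts at 6 weeks (log2 change 0.54 ± 0.082, SE, adjusted p 1.07e-05), with 0.19 in hHGF-NSG hosts (adjusted p 0.1) and a difference between the hosts' responses of -0.35 (adjusted p 0.253). In hHGF-NSG hosts at 6 weeks SLC38A1 passed without 6 weeks replicate 1 of that host (0.28, adjusted p 0.026), beside the calls it gained when scaled by total reads. SLC38A2 fell in hHGF-NSG hosts by 0.48 on the log2 scale at 2 weeks and by 0.29 at 6 weeks (adjusted p 0.000808 and 0.04), while NSG hosts gave -0.13 and -0.005 (adjusted p 0.268 and 0.974). The 6-week call in hHGF-NSG hosts was lost without naive replicate 1 or 2 or 6 weeks replicate 1 or 2 of that host (adjusted p 0.0546 to 0.196).

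SLC6A9, a glycine transporter, was the transporter that rose in both hosts. In hHGF-NSG hosts SLC6A9 stood at 0.644, 0.597 and 0.443 FPKM in naive tumours, 1.95, 2.89, 1.90 and 2.58 after 2 weeks and 1.38, 1.72 and 0.847 after 6 weeks. In NSG hosts SLC6A9 stood at 0.609, 0.430, 0.662 and 0.522 FPKM in naive tumours, 1.32, 2.99, 2.87 and 2.89 after 2 weeks and 1.51, 1.09, 1.26 and 1.22 after 6 weeks. All treated tumours lay above all naive ones, and most 2-week tumours lay above the 6-week ones of their host. For SLC6A9 the log2 change was 1.08 ± 0.17 in hHGF-NSG and 1.15 ± 0.16 in NSG hosts at 2 weeks, and 0.55 ± 0.18 and 0.54 ± 0.16 at 6 weeks (SE, adjusted p 3.04e-06 to 0.015), and the 6-week call in hHGF-NSG hosts was lost without hHGF-NSG naive replicate 3 or 6 weeks replicate 2 (adjusted p 0.0527 and 0.0839). SLC6A9 overlaps CCDC24 on the genome, and CCDC24 held 258% of its reads. CCDC24 moved the same way, with log2 changes in hHGF-NSG and NSG hosts of 1.998 and 1.94 after 2 weeks and 1.51 and 1.13 after 6 weeks, and reads of the 2 genes may not be told apart, since strand use in counting is not given in the sources used here.

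**Figure D2:**
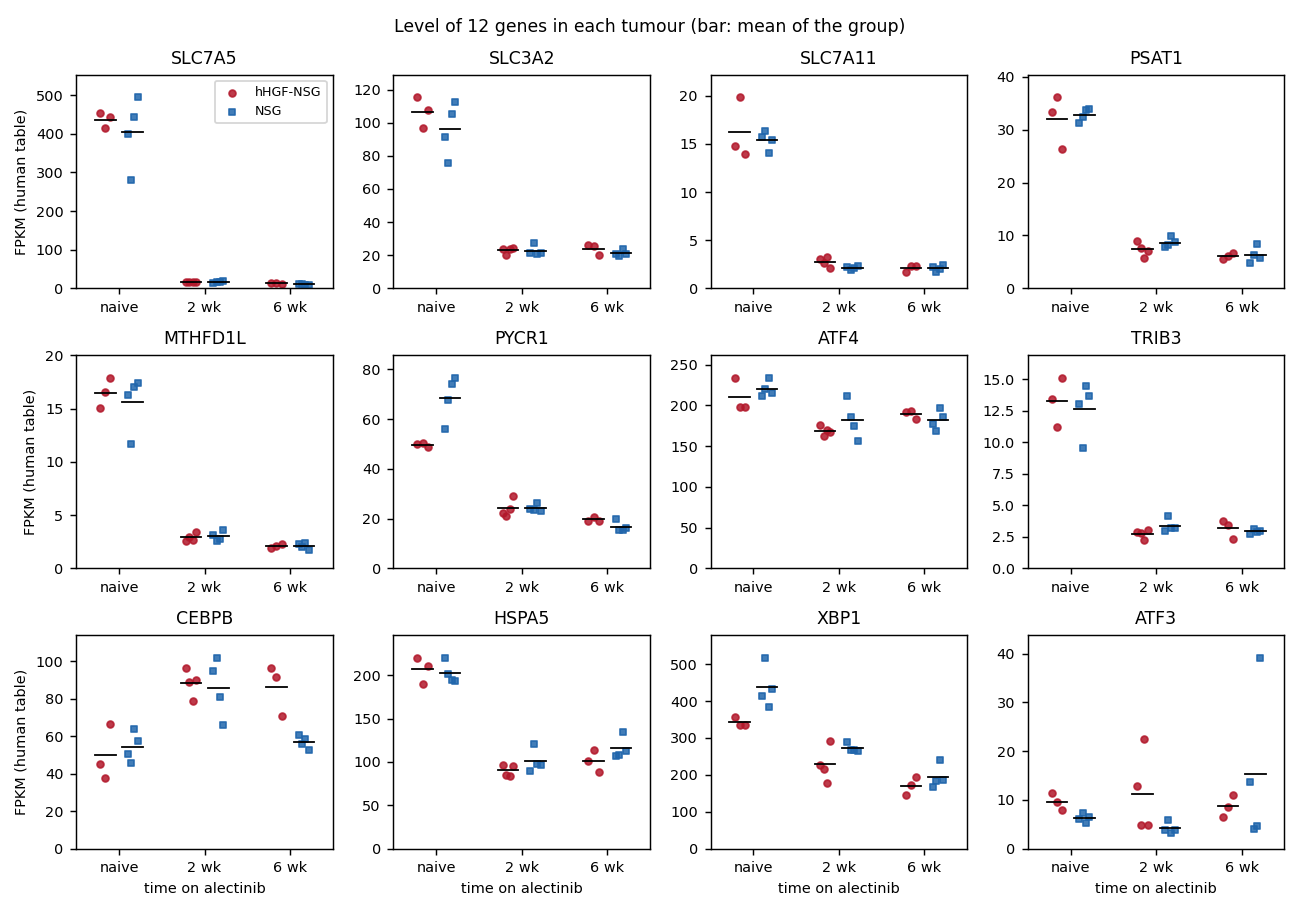
FPKM (y axis, linear from 0) of 12 members in each human library by time on alectinib (x axis), with circles for hHGF-NSG hosts, squares for NSG hosts and a bar at the group mean. SLC7A5 stands at 279.6 FPKM or more in naive tumours and at 18.5 FPKM or less in treated ones, CEBPB is higher at 2 weeks, and ATF3 is scattered within groups.

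All enzymes of serine synthesis and mitochondrial one-carbon metabolism that could be tested were lower after 6 weeks in both hosts. PHGDH, the first enzyme of serine synthesis, was present at low levels, 2.91 to 4.29 FPKM in naive tumours, 0.624 to 1.44 after 2 weeks and 0.691 to 1.45 after 6 weeks, with log2 changes in hHGF-NSG and NSG hosts of -1.04 and -1.11 after 2 weeks and -0.96 and -1.39 after 6 weeks (adjusted p 4.51e-09 to 7.36e-06). PSAT1 (ENSG00000135069, chromosome 9, 78297143 to 78330093, plus strand), the second enzyme, was better expressed. In hHGF-NSG hosts PSAT1 stood at 33.3, 36.1 and 26.4 FPKM in naive tumours, 9.03, 7.67, 5.76 and 7.09 after 2 weeks and 5.55, 6.19 and 6.61 after 6 weeks. In NSG hosts PSAT1 stood at 31.3, 32.4, 33.7 and 33.9 FPKM in naive tumours, 7.80, 8.13, 9.88 and 8.67 after 2 weeks and 4.75, 6.21, 8.32 and 5.70 after 6 weeks. The lowest naive tumour was 26.4 FPKM and the highest treated one 9.88 FPKM, so the states did not overlap. PSAT1 had a log2 change of -1.98 ± 0.14 in hHGF-NSG and -1.82 ± 0.13 in NSG hosts at 2 weeks, and -2.20 ± 0.15 and -2.24 ± 0.13 at 6 weeks (SE, adjusted p 1.37e-11 to 3.48e-10). PSPH, the last enzyme of the path, was not called at 2 weeks, when it gave -0.04 in hHGF-NSG hosts (adjusted p 0.797) and -0.13 in NSG hosts (adjusted p 0.349). It fell at 6 weeks, by 0.63 and 0.68 on the log2 scale (adjusted p 0.000383 and 3.17e-05).

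In the mitochondrial folate cycle, MTHFD1L (ENSG00000120254, chromosome 6, 150865549 to 151101887, plus strand), which releases formate, fell most. In hHGF-NSG hosts MTHFD1L stood at 15.03, 16.5 and 17.9 FPKM in naive tumours, 2.56, 2.98, 2.68 and 3.39 after 2 weeks and 1.89, 2.11 and 2.25 after 6 weeks. In NSG hosts MTHFD1L stood at 16.3, 11.7, 17.02 and 17.4 FPKM in naive tumours, 3.17, 2.60, 2.77 and 3.62 after 2 weeks and 2.27, 1.98, 2.39 and 1.68 after 6 weeks. Again no treated tumour overlapped a naive one. The log2 change was -2.16 ± 0.12 in hHGF-NSG and -2.03 ± 0.12 in NSG hosts at 2 weeks, and -2.50 ± 0.13 and -2.42 ± 0.12 at 6 weeks (SE, adjusted p 4.81e-13 to 8.71e-12). MTHFD2, the dehydrogenase and cyclohydrolase of the cycle, ranged over 33.5 to 43.6 FPKM in naive tumours, 7.70 to 11.3 after 2 weeks and 7.30 to 11.5 after 6 weeks, with log2 changes in hHGF-NSG and NSG hosts of -2.08 and -1.76 after 2 weeks and -2.10 and -1.91 after 6 weeks. SHMT2, the mitochondrial enzyme that splits serine into glycine and a one-carbon unit, ranged over 46.3 to 59.5 FPKM in naive tumours, 14.6 to 16.8 after 2 weeks and 12.2 to 16.9 after 6 weeks, with log2 changes of -1.63 and -1.71 after 2 weeks and -1.70 and -1.90 after 6 weeks. Its cytosolic form SHMT1 gave -0.74 and -0.87 after 2 weeks and -0.63 and -1.07 after 6 weeks. All of these passed, with adjusted p of 6.79e-05 or less. SMCR8, which overlaps SHMT1 and held 103% of its reads, was called in none of the 4 comparisons.

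The enzymes that turn glutamate into proline and alanine fell too. PYCR1 (ENSG00000183010, chromosome 17, 81932384 to 81942412, minus strand), the last enzyme of proline synthesis, stood at 49.99, 50.4 and 48.8 FPKM in naive tumours, 22.4, 21.01, 23.8 and 29.2 after 2 weeks and 19.2, 20.8 and 19.04 after 6 weeks in hHGF-NSG hosts. The PYCR1 levels of NSG hosts were 56.01, 67.9, 74.1 and 76.7 FPKM in naive tumours, 23.8, 23.3, 26.3 and 22.9 after 2 weeks and 19.7, 15.3, 15.4 and 16.4 after 6 weeks. Each treated tumour was below each naive one, and all 6-week tumours of a host were below all its 2-week tumours. PYCR1 had a log2 change of -1.02 ± 0.11 in hHGF-NSG and -1.46 ± 0.11 in NSG hosts at 2 weeks, and -1.29 ± 0.12 and -1.97 ± 0.11 at 6 weeks (SE, adjusted p 2.83e-12 to 1.89e-07). ALDH18A1, which starts the same path, ranged over 27.2 to 35.6 FPKM in naive tumours, 12.6 to 17.6 after 2 weeks and 12.9 to 16.5 after 6 weeks, with log2 changes in hHGF-NSG and NSG hosts of -0.80 and -1.002 after 2 weeks and -0.99 and -1.08 after 6 weeks (adjusted p 5.37e-09 to 1.26e-06). GPT2, the mitochondrial alanine aminotransferase, had log2 changes of -0.36 and -0.43 after 2 weeks and -0.35 and -0.66 after 6 weeks (adjusted p 2.83e-06 to 0.0084).

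In the ATF4 branch the members parted. ATF4 RNA (ENSG00000128272, chromosome 22, 39519695 to 39522685, plus strand) was abundant and little changed. In hHGF-NSG hosts ATF4 stood at 233, 198 and 198 FPKM in naive tumours, 176, 163, 170.2 and 168 after 2 weeks and 192, 193 and 183 after 6 weeks. In NSG hosts ATF4 stood at 212, 221, 234 and 215 FPKM in naive tumours, 212, 186, 174 and 156 after 2 weeks and 177, 169, 197 and 186 after 6 weeks. All treated tumours were below all naive ones of their host, though NSG 2 weeks replicate 1 was close to the lowest naive tumour. The log2 change was -0.31 ± 0.095 in hHGF-NSG and -0.28 ± 0.088 in NSG hosts at 2 weeks, and -0.15 ± 0.10 and -0.28 ± 0.088 at 6 weeks (SE), with adjusted p of 0.0098, 0.0095, 0.243 and 0.0109 in that order, so that the hHGF-NSG hosts at 6 weeks missed the threshold. The hHGF-NSG call at 2 weeks was lost without hHGF-NSG naive replicate 1 (adjusted p 0.0744). With libraries scaled by their total reads instead of the authors' scaling, the ATF4 changes were -0.06 and -0.01 at 2 weeks and 0.03 and -0.05 at 6 weeks, and none passed (adjusted p 0.575 to 0.909).

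TRIB3 (ENSG00000101255, chromosome 20, 362835 to 397559, plus strand), a pseudokinase that ATF4 induces and that restrains it, fell most in the branch. In hHGF-NSG hosts TRIB3 stood at 13.4, 11.2 and 15.1 FPKM in naive tumours, 2.89, 2.77, 2.26 and 3.03 after 2 weeks and 3.72, 3.46 and 2.36 after 6 weeks. In NSG hosts TRIB3 stood at 13.02, 9.52, 14.5 and 13.6 FPKM in naive tumours, 2.96, 4.15, 3.18 and 3.20 after 2 weeks and 2.73, 3.15, 2.90 and 2.99 after 6 weeks. There was no overlap between treated and naive tumours. On the log2 scale TRIB3 changed by -1.93 ± 0.14 in hHGF-NSG and -1.64 ± 0.13 in NSG hosts at 2 weeks, and -1.78 ± 0.15 and -1.78 ± 0.13 at 6 weeks (SE, adjusted p 2.66e-10 to 3.54e-09). SESN2, which binds leucine and restrains mTORC1, ranged over 3.02 to 4.36 FPKM in naive tumours, 1.61 to 2.11 after 2 weeks and 1.64 to 2.45 after 6 weeks, with log2 changes in hHGF-NSG and NSG hosts of -0.69 and -0.72 after 2 weeks and -0.48 and -0.70 after 6 weeks (adjusted p 7.11e-06 to 0.0027).

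CEBPB, a transcription factor that pairs with ATF4, went the other way. In hHGF-NSG hosts CEBPB stood at 45.3, 37.4 and 66.4 FPKM in naive tumours, 96.6, 88.9, 78.8 and 89.9 after 2 weeks and 96.5, 91.8 and 70.6 after 6 weeks. In NSG hosts CEBPB stood at 50.6, 45.9, 63.9 and 57.2 FPKM in naive tumours, 94.99, 102, 80.9 and 66.1 after 2 weeks and 60.8, 55.7, 58.3 and 52.9 after 6 weeks. All 2-week tumours were above the naive tumours of their host, and at 6 weeks this held in hHGF-NSG but not in NSG hosts. The log2 change was 0.86 ± 0.17 in hHGF-NSG hosts (SE, adjusted p 0.000234) and 0.64 ± 0.16 in NSG hosts (adjusted p 0.0016) at 2 weeks, and 0.81 ± 0.18 (adjusted p 0.000842) and 0.07 ± 0.16 (adjusted p 0.712) at 6 weeks. The difference between the hosts' responses at 6 weeks, 0.74 ± 0.24, did not pass (adjusted p 0.235).

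With the authors' scaling the remaining members of the branch were called in no comparison with naive tumours, while scaling by total reads called ATF5 and DDIT3 higher in the comparisons given above. DDIT3, the stress factor CHOP, ranged over 7.33 to 11.2 FPKM in naive tumours, 4.78 to 8.66 after 2 weeks and 8.28 to 11.9 after 6 weeks. PPP1R15A, which targets a phosphatase to eIF2, ranged over 29.3 to 39.7 FPKM in naive tumours, 29.2 to 39.2 after 2 weeks and 23.5 to 40.8 after 6 weeks, and ATF5 over 9.03 to 14.02 FPKM in naive tumours, 10.4 to 13.4 after 2 weeks and 10.7 to 14.4 after 6 weeks. CHAC1, an enzyme that degrades glutathione, stayed at 0.862 to 3.05 FPKM in naive tumours, 1.09 to 2.56 after 2 weeks and 0.991 to 2.14 after 6 weeks. These ranges pool both hosts and overlapped widely. Within NSG hosts DDIT3 at 6 weeks lay above all naive tumours, at 9.40 to 11.9 against 7.33 to 9.06 FPKM. Within hHGF-NSG hosts ATF5 at 6 weeks did so too, at 11.7 to 13.7 against 9.49 to 11.2 FPKM. CHAC1 in NSG hosts at 6 weeks gave a log2 change of -0.43 (adjusted p 0.0647), and it passed without NSG naive replicate 2 (-0.65, adjusted p 0.00258) or NSG 6 weeks replicate 3 (-0.52, adjusted p 0.0359). ATF3, an early stress gene, varied widely between tumours of 1 group. Its levels were 12.8, 4.89, 22.4 and 4.75 FPKM in hHGF-NSG tumours at 2 weeks and 13.6, 3.94, 4.60 and 39.2 FPKM in NSG tumours at 6 weeks, while the 7 naive tumours held 5.20 to 11.4 FPKM. Reads of overlapping genes bear on DDIT3 and ATF5: MARS and MBD6 held 1401% and 1073% of the reads of DDIT3, and NUP62 held 195% of those of ATF5. MARS had log2 changes in hHGF-NSG and NSG hosts of -0.32 and -0.32 after 2 weeks and -0.66 and -0.56 after 6 weeks. MBD6 gave 0.18 and -0.15, and 0.01 and -0.29, none of them called (adjusted p 0.0578 to 0.977), and NUP62 gave -0.24 and -0.38, and -0.25 and -0.53.

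In the ER branch the chaperones fell and DNAJB9 was not called. HSPA5 (ENSG00000044574, chromosome 9, 125234853 to 125241330, minus strand), the main ER chaperone BiP, stood at 220.4, 189.8 and 211 FPKM in naive tumours, 96.8, 84.9, 83.9 and 95.7 after 2 weeks and 101, 113 and 88.5 after 6 weeks in hHGF-NSG hosts. The HSPA5 levels in NSG hosts were 220.4, 201, 194 and 193 FPKM in naive tumours, 90.1, 120.5, 97.3 and 96.3 after 2 weeks and 107, 108, 134 and 113 after 6 weeks. The highest treated tumour held 134 FPKM and the lowest naive one 189.8 FPKM. On the log2 scale HSPA5 changed by -1.19 ± 0.11 in hHGF-NSG and -1.001 ± 0.10 in NSG hosts at 2 weeks, and -1.03 ± 0.12 and -0.81 ± 0.10 at 6 weeks (SE, adjusted p 1.58e-08 to 1.25e-06). HSP90B1, the ER form of HSP90, ranged over 225 to 299 FPKM in naive tumours, 98.4 to 136 after 2 weeks and 102 to 164 after 6 weeks, with log2 changes in hHGF-NSG and NSG hosts of -1.25 and -0.95 after 2 weeks and -1.27 and -0.88 after 6 weeks (adjusted p 1.28e-08 to 6.37e-07). PDIA4, a disulfide isomerase, ranged over 89.1 to 105 FPKM in naive tumours, 43.5 to 57.9 after 2 weeks and 37.4 to 49.1 after 6 weeks, with -0.91 and -0.98 after 2 weeks and -1.03 and -1.28 after 6 weeks (adjusted p 1.3e-09 to 6.11e-07). Neither overlapped between naive and treated tumours.

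XBP1 (ENSG00000100219, chromosome 22, 28794555 to 28800597, minus strand), the transcription factor whose RNA is spliced by IRE1 under ER stress, was with SLC7A5 the most abundant member in naive tumours. Its values sum spliced and unspliced forms. In hHGF-NSG hosts XBP1 stood at 358, 335 and 335 FPKM in naive tumours, 228, 217, 178 and 291 after 2 weeks and 144, 172 and 194 after 6 weeks. In NSG hosts XBP1 stood at 415, 518, 382 and 433 FPKM in naive tumours, 288, 267, 268 and 265 after 2 weeks and 166, 183, 239.7 and 185 after 6 weeks. Treated tumours lay below naive ones in each host. XBP1 had a log2 change of -0.60 ± 0.15 in hHGF-NSG and -0.67 ± 0.14 in NSG hosts at 2 weeks, and -1.02 ± 0.16 and -1.17 ± 0.14 at 6 weeks (SE, adjusted p 3.6e-07 to 0.0017). HERPUD1, a part of ER-associated degradation, moved less, with log2 changes in hHGF-NSG and NSG hosts of -0.27 and -0.49 after 2 weeks and -0.18 and -0.24 after 6 weeks and adjusted p of 0.0396 and 0.000331, and 0.208 and 0.0492. The NSG call at 6 weeks was lost without any 1 of NSG naive replicates 1, 2 and 3 and NSG 6 weeks replicates 1, 2 and 4 (adjusted p 0.0732 to 0.162). The hHGF-NSG call at 2 weeks was lost without any 1 of hHGF-NSG naive replicates 1 and 2 and hHGF-NSG 2 weeks replicates 1, 2 and 3 (adjusted p 0.06 to 0.203). DNAJB9, a cochaperone of HSPA5, ranged over 6.40 to 11.97 FPKM in naive tumours, 4.89 to 8.04 after 2 weeks and 5.92 to 11.2 after 6 weeks and was called in none of the 4 comparisons (adjusted p 0.188 to 0.828). PNPLA8 and THAP5 overlap DNAJB9 and held 127% and 89.8% of its reads, which may not be told apart. PNPLA8 was called only in NSG hosts at 6 weeks (log2 change 0.22, adjusted p 0.0399), and THAP5 in none of the 4 comparisons (adjusted p 0.0719 to 0.907).

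Fewer members were called between 2 and 6 weeks. In hHGF-NSG hosts 2 of 34 were lower and 1 higher at 6 weeks than at 2 weeks, against 6.45% and 2.63% of all genes. In NSG hosts 10 were lower and 2 higher, against 11.9% and 8.43%, and this difference in counts between hosts was not tested. The hHGF-NSG count of 3 became 1 without 2 weeks replicate 1, 2 or 4 of that host and 5 without its 2 weeks replicate 3. SLC7A5 fell further in NSG hosts (-0.57 ± 0.13 log2, SE, adjusted p 0.004), and hHGF-NSG hosts gave -0.32 (adjusted p 0.202). PYCR1 fell by 0.51 in NSG hosts (adjusted p 0.0017), XBP1 by 0.50 (adjusted p 0.0141) and CEBPB by 0.57 (adjusted p 0.0144; 0.0576 without NSG 2 weeks replicate 2). SLC6A9, high at 2 weeks, fell by 0.60 in NSG hosts (adjusted p 0.0103), with -0.53 in hHGF-NSG hosts (adjusted p 0.054). PSPH was lower at 6 weeks in both hosts, at -0.59 in hHGF-NSG (adjusted p 0.0025) and -0.55 in NSG (adjusted p 0.0016). SLC1A4 was likewise lower, at -0.54 (adjusted p 0.0226) and -0.59 (adjusted p 0.0041). The hHGF-NSG call of SLC1A4 was lost without any 1 of hHGF-NSG 2 weeks replicates 1, 2 and 4 and 6 weeks replicates 1 and 2 (adjusted p 0.0579 to 0.165).

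The other 3 members called lower in NSG hosts were PSAT1, MTHFD1L and PDIA4, at -0.43, -0.39 and -0.29 (adjusted p 0.0282, 0.0216 and 0.0468). Each was lost when 1 library was left out, PSAT1 without NSG 2 weeks replicate 3 or 4 or NSG 6 weeks replicate 1, 2 or 4 (adjusted p 0.0507 to 0.0958), MTHFD1L without NSG 2 weeks replicate 1 or 4 or 6 weeks replicate 2 or 4 (0.0503 to 0.0805) and PDIA4 without NSG 2 weeks replicate 2 or 4 or 6 weeks replicate 1, 2 or 4 (0.0869 to 0.169). DDIT3 was called higher at 6 weeks than at 2 weeks in both hosts, at 0.52 ± 0.16 in hHGF-NSG (SE, adjusted p 0.0458) and 0.52 ± 0.15 in NSG (adjusted p 0.0165). In hHGF-NSG hosts DDIT3 stood at 11.6, 11.2 and 8.28 FPKM at 6 weeks and 6.52, 6.44, 7.83 and 6.76 at 2 weeks. In NSG hosts it stood at 9.40, 9.92, 11.8 and 11.9 FPKM at 6 weeks and 8.55, 7.21, 8.66 and 4.78 at 2 weeks, again with no overlap. The hHGF-NSG call was lost without any 1 of hHGF-NSG 2 weeks replicates 1, 2 and 4 and 6 weeks replicates 1 and 2 (adjusted p 0.0881 to 0.208) and when scaled by total reads (adjusted p 0.0679), and the NSG call without NSG 2 weeks replicate 4 or 6 weeks replicate 4 (0.0581 and 0.0535). SLC38A1 was the other member higher at 6 weeks in NSG hosts, by 0.41 (adjusted p 0.0014).

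No member was called different between the hosts. In limma, 0 of 34 members were called in naive tumours, at 2 weeks or at 6 weeks, and 0 when the 2 hosts' responses to alectinib were set against each other, where 0.0187% of all genes were called in naive tumours and 0 in the other 4 tests. At an unadjusted p under 0.05 the counts were 6 in naive tumours, 4 at 2 weeks, 5 at 6 weeks, and 2 and 7 for the response at 2 and 6 weeks. The share of all genes at that unadjusted threshold is not given here, so these counts cannot be set against it and show no host effect. The largest differences in response at 6 weeks were those of ATF3, at -0.79 ± 0.75 (SE, adjusted p 0.684), CEBPB, given above, and PYCR1, at 0.68 ± 0.16 (adjusted p 0.131). PYCR1 was lower in hHGF-NSG than in NSG naive tumours in all samples, with a log2 difference of -0.45 ± 0.11 (adjusted p 0.222). Without the library labelled NSG naive replicate 1, PYCR1 was called in the naive comparison (-0.54, adjusted p 0.0408) and in the response at 6 weeks (0.77, adjusted p 0.0297). That library changed no count against naive by more than 1 member: without it 25 members were called in NSG hosts at 2 weeks and 25 at 6 weeks, against 25 and 26 with it.

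Genes next to the members in the same pathways were read from 9 further lists, to be set beside all tested genes, of which 26.6% and 28.0% were lower at 2 weeks in hHGF-NSG and NSG hosts and 25.5% and 28.8% at 6 weeks, with 27.5%, 28.1%, 25.9% and 28.8% higher. The cytosolic aminoacyl-tRNA synthetases, which load tRNAs and are in good part ATF4 targets, had 16 and 12 of 20 tested genes lower at 2 weeks in hHGF-NSG and NSG hosts and 17 and 16 lower at 6 weeks, with 0, 0, 0 and 0 higher in the same order, and median log2 changes of -0.46, -0.39, -0.49 and -0.56. GARS, the glycyl enzyme, changed by -1.33 and -1.10 after 2 weeks and -1.53 and -1.34 after 6 weeks in hHGF-NSG and NSG hosts, and VARS, the valyl enzyme, by -0.99 and -0.96 after 2 weeks and -1.26 and -1.62 after 6 weeks. Other targets of ATF4 and CHOP had 13 and 12 of 18 tested genes lower at 2 weeks in hHGF-NSG and NSG hosts and 13 and 12 lower at 6 weeks, with 2, 2, 2 and 3 higher in the same order, and median log2 changes of -0.83, -0.96, -0.77 and -1.03. NDRG1, a stress and hypoxia gene, had 255 ± 22.4 FPKM in naive, 16.8 ± 2.11 in 2-week and 25.5 ± 3.74 in 6-week tumours of hHGF-NSG hosts (SD, n = 3, 4 and 3). In log2 it changed by -3.85 and -3.77 after 2 weeks and -3.28 and -2.83 after 6 weeks, and the secreted proteins STC2 and GDF15 by -3.98 and -3.58 after 2 weeks and -3.83 and -3.71 after 6 weeks, and by -3.24 and -3.03 after 2 weeks and -2.77 and -3.08 after 6 weeks. DDIT4, which restrains mTORC1, changed by -2.80 and -2.91 after 2 weeks and -1.66 and -2.33 after 6 weeks. These genes were named by rule for the largest changes of the list, and all their values passed the test.

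Folate and glycine genes outside the group had 10 and 10 of 15 tested genes lower at 2 weeks in hHGF-NSG and NSG hosts and 10 and 10 lower at 6 weeks, with 1, 3, 2 and 3 higher in the same order, and median log2 changes of -0.50, -0.56, -0.58 and -0.49. TYMS, MTHFD1 and SLC19A1, which make thymidylate, run the cytosolic folate cycle and import folate, were lower in all 4 comparisons, with TYMS at -1.37 and -1.40 after 2 weeks and -1.60 and -1.92 after 6 weeks. Genes of glutamine, aspartate and proline use had 10 and 10 of 16 tested genes lower at 2 weeks in hHGF-NSG and NSG hosts and 8 and 10 lower at 6 weeks, with 3, 2, 3 and 3 higher in the same order, and median log2 changes of -0.60, -0.58, -0.36 and -0.64. GOT1, which makes aspartate, changed by -1.09 and -1.13 after 2 weeks and -1.22 and -1.58 after 6 weeks, and BCAT1, a branched-chain aminotransferase, by -1.40 and -1.39 after 2 weeks and -1.35 and -1.45 after 6 weeks. The glutathione and NRF2 genes, partners of SLC7A11, had 6 and 8 of 14 tested genes lower at 2 weeks in hHGF-NSG and NSG hosts and 6 and 9 lower at 6 weeks, with 2, 3, 3 and 2 higher in the same order, and median log2 changes of -0.13, -0.44, -0.15 and -0.60. NQO1, a quinone reductase, changed by -1.26 and -1.19 after 2 weeks and -1.72 and -2.01 after 6 weeks.

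The eIF2 kinases, subunits and phosphatase genes had 10 and 11 of 16 tested genes lower at 2 weeks in hHGF-NSG and NSG hosts and 10 and 9 lower at 6 weeks, with 2, 2, 1 and 2 higher in the same order, and median log2 changes of -0.36, -0.40, -0.34 and -0.33. EIF2S1, the subunit that is phosphorylated, changed by -1.27 and -1.13 after 2 weeks and -1.33 and -0.91 after 6 weeks, and EIF2AK3, the ER stress kinase PERK, by -0.85 and -0.88 after 2 weeks and -0.77 and -0.69 after 6 weeks. ER folding and degradation genes had 15 and 19 of 28 tested genes lower at 2 weeks in hHGF-NSG and NSG hosts and 14 and 16 lower at 6 weeks, with 5, 3, 6 and 3 higher in the same order, and median log2 changes of -0.38, -0.44, -0.33 and -0.55. Among them EDEM1, an XBP1 target, changed by -1.77 and -1.82 after 2 weeks and -1.25 and -1.10 after 6 weeks and P4HB, a disulfide isomerase, by -1.28 and -1.37 after 2 weeks and -1.33 and -1.75 after 6 weeks. Not all neighbours fell. Other amino acid transporters had 3 and 4 of 14 tested genes lower at 2 weeks in hHGF-NSG and NSG hosts and 3 and 3 lower at 6 weeks, with 7, 7, 7 and 5 higher in the same order, and median log2 changes of 0.21, 0.21, 0.32 and 0.11. SLC6A6, the taurine transporter, changed by -1.89 and -1.75 after 2 weeks and -1.88 and -1.75 after 6 weeks, while SLC7A2, a cationic amino acid transporter like SLC7A1, was higher, by 0.98 and 0.81 after 2 weeks and 0.73 and 0.98 after 6 weeks. The amino acid sensing genes upstream of mTORC1 had 6 and 6 of 34 tested genes lower at 2 weeks in hHGF-NSG and NSG hosts and 8 and 11 lower at 6 weeks, with 9, 9, 7 and 9 higher in the same order. Their median log2 changes of 0.08, 0.01, 0.09 and 0.06 lay near the medians of all genes, 0.03, 0.03, 0.02 and 0.03. At 2 weeks the lower counts lay under the shares of all genes. RRAGD changed by -1.45 and -1.45 after 2 weeks and -1.10 and -1.15 after 6 weeks and SESN1, the relative of SESN2, by 0.55 and 0.84 after 2 weeks and 0.89 and 1.02 after 6 weeks, so that SESN1 and SESN2 moved in opposite directions.

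**Figure D3:**
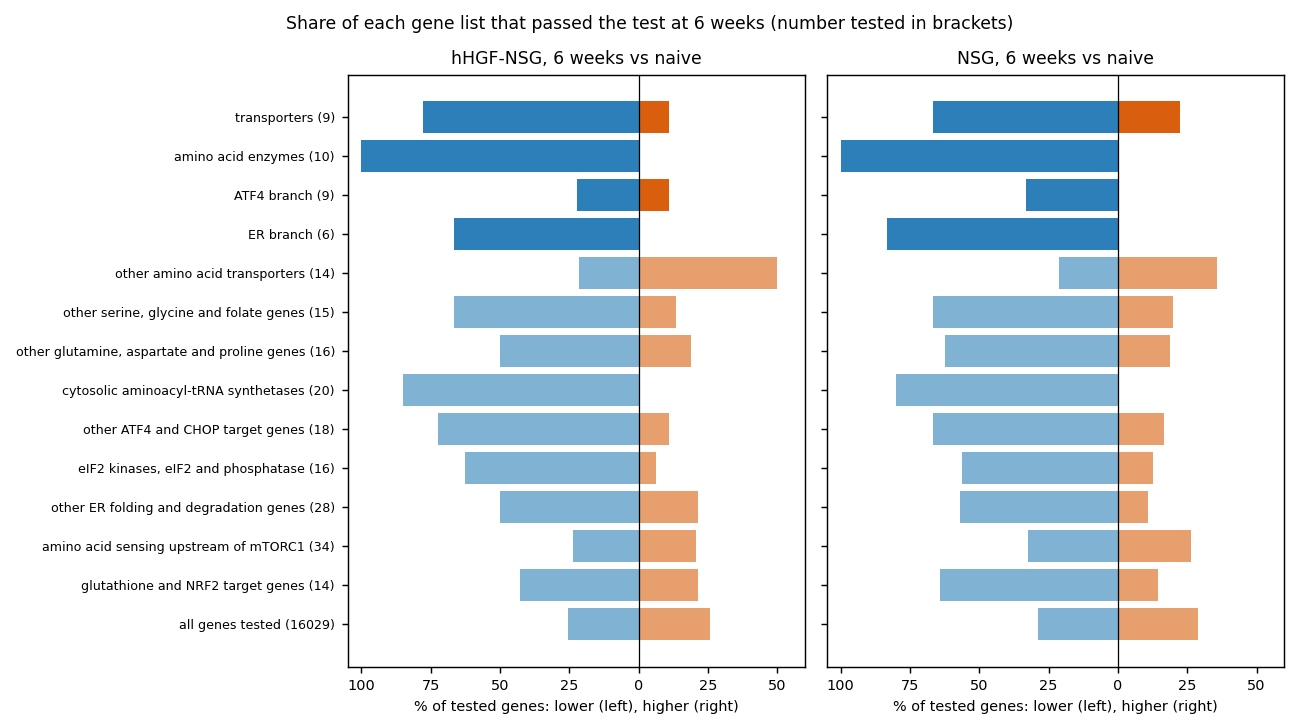
Percentage of tested genes called lower (left of 0) and higher (right of 0) at 6 weeks against naive tumours (x axis) for the members by role, the 9 further lists and all tested genes (rows, with the number tested in brackets), in hHGF-NSG and NSG hosts. All 10 tested enzymes lie on the lower side, no tRNA synthetase lies on the higher side, and all tested genes split about evenly.

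In the mouse table, where reads of the same tumours were mapped to the mouse genome, the genes of the same names moved in both directions. Of the 35, 34 had a unique symbol and 33 were tested. At 2 weeks 3 were higher and 2 lower in hHGF-NSG hosts, where 3.49% and 3.56% of all mouse genes were, and 4 higher and 4 lower in NSG hosts (3.32% and 4.48%). At 6 weeks 7 were higher and 7 lower in hHGF-NSG hosts (9.67% and 8.12%), and 5 higher and 8 lower in NSG hosts (8.81% and 8.59%). Host tissue is a mix of cell types: the 7 fibroblast and mural markers summed to 3981 to 14455 FPKM, 6 leukocyte markers to 235 to 589, and 3 erythroid markers to 172 to 1346. The 9 epithelial and tumour markers summed to 93.8 to 409 FPKM there, nearly all of it Nkx2-1, at 85.2 to 401 FPKM. Of the others Krt8 reached 1.73 FPKM, Epcam 6.09, Eml4 12.4 and Krt19 13.8, and mean Krt19 was 5.62 in hHGF-NSG and 4.50 in NSG naive tumours and 0.0661 to 0.365 in the treated groups. Reads were mapped to each genome separately. How many human reads the mouse values hold, and how many mouse reads the human values hold, was not tested. The 2-week counts moved when single libraries were left out: the hHGF-NSG count of 5 became 2 without naive replicate 2 or 2 weeks replicate 3 of that host, 3 without 2 weeks replicate 1 and 9 without 2 weeks replicate 4, and the NSG count of 8 became 5 without NSG naive replicate 3 or 2 weeks replicate 3 and 4 without NSG naive replicate 4. At 6 weeks the hHGF-NSG count of 14 became 9 without 6 weeks replicate 3.

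Mouse Slc1a5, the glutamine-carrying exchanger whose human form fell, rose most. In hHGF-NSG hosts Slc1a5 stood at 12.9, 40.8 and 35.7 FPKM in naive tumours, 59.7, 51.1, 105 and 27.5 at 2 weeks and 173, 322 and 213 at 6 weeks. In NSG hosts Slc1a5 stood at 30.8, 21.1 and 18.5 FPKM in naive tumours, 47.8, 29.4, 33.5 and 38.3 at 2 weeks and 185, 152 and 141 at 6 weeks. All 6-week tumours lay above all earlier ones of their host. The log2 change at 6 weeks was 3.05 ± 0.41 in hHGF-NSG hosts (SE, adjusted p 9.99e-05) and 2.74 ± 0.41 in NSG hosts (adjusted p 0.000184). Mouse Phgdh rose too. In hHGF-NSG hosts Phgdh stood at 6.76, 5.47 and 4.92 FPKM in naive tumours, 17.1, 7.86, 17.7 and 5.56 at 2 weeks and 24.3, 37.3 and 27.5 at 6 weeks. In NSG hosts Phgdh stood at 2.88, 3.18 and 4.95 FPKM in naive tumours, 14.1, 10.8, 11.4 and 6.92 at 2 weeks and 27.5, 17.6 and 29.4 at 6 weeks. At 6 weeks it was above naive in every tumour, with log2 changes of 2.18 ± 0.34 (SE, adjusted p 0.000324) and 2.46 ± 0.34 (adjusted p 0.000103), from 7 to 32 reads in naive libraries. Human SLC1A5 and PHGDH had changed by -0.66 and -1.02, and by -0.96 and -1.39, in the same hosts at 6 weeks.

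Other mouse genes that rose at 6 weeks in both hosts were Gpt2 (1.44 and 1.03 in hHGF-NSG and NSG hosts), Asns (0.75 and 0.72) and Herpud1 (0.91 and 1.08). The Asns calls were lost without several single libraries, replicates 2 and 3 of both hHGF-NSG naive and hHGF-NSG 6 weeks, NSG naive replicates 1, 3 and 4 and NSG 6 weeks replicate 3 (adjusted p 0.0544 to 0.246). Lower in both hosts were Slc7a1 (-1.31 and -0.92), Mthfd2 (-0.89 and -1.31), Pdia4 (-0.59 and -0.58) and Hsp90b1 (-1.12 and -0.59), as their human forms were. Mouse Slc7a5 was called lower in NSG hosts alone, at -1.34 at 2 weeks and -1.66 at 6 weeks, with -0.54 and -0.61 in hHGF-NSG hosts (adjusted p 0.171 and 0.0978), and the difference between hosts was not called (adjusted p 0.674 and 0.547). The Slc7a1 call in NSG hosts was lost without NSG naive replicate 1 (adjusted p 0.0525), and that of Gpt2 in NSG hosts without NSG naive replicate 4 (0.0635). Without single libraries Mthfd2 was lost in hHGF-NSG hosts (all but hHGF-NSG naive replicate 3, 0.0866 to 0.173) and Hsp90b1 in NSG hosts (NSG naive replicates 1 and 4 and 6 weeks replicates 1 and 2, 0.059 to 0.106). Mouse Slc3a2 was called in none of the 4 comparisons. The mouse share of reads was itself higher at 6 weeks. The part of shifts among host cell types in these changes was not tested.

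**Figure D4:**
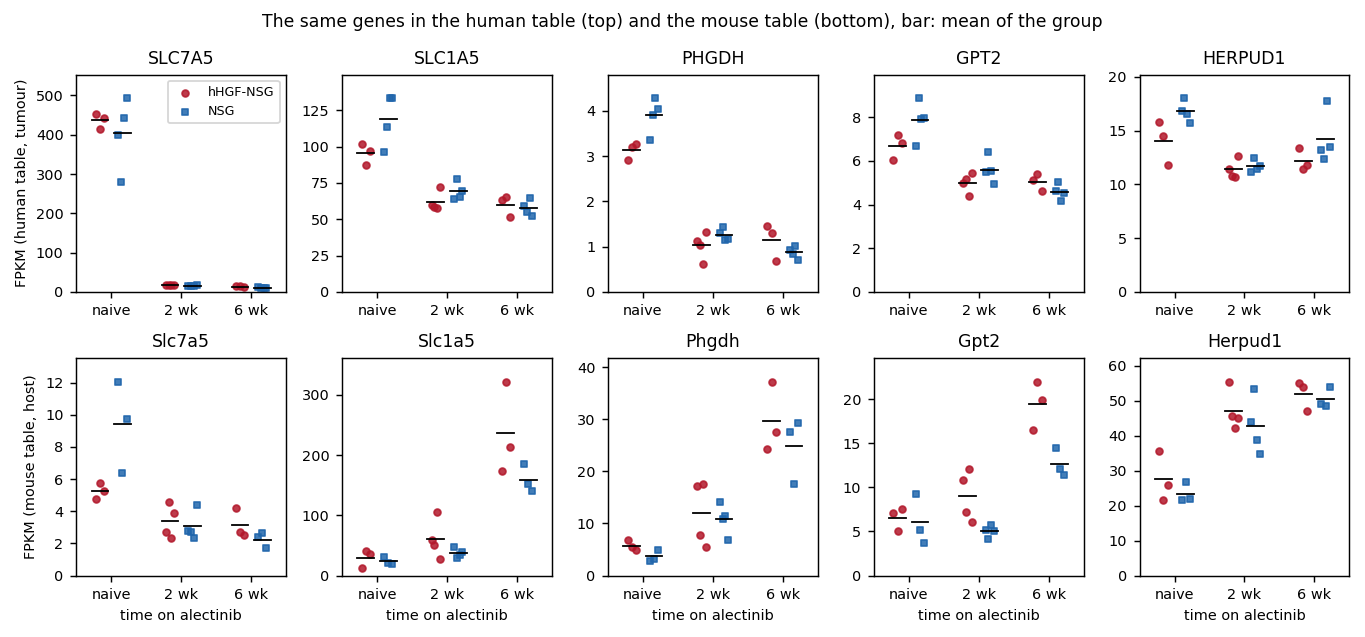
FPKM (y axis, linear from 0) of 5 genes in the human table (top row) and of the mouse genes of the same names in the mouse table (bottom row), by time on alectinib (x axis), with circles for hHGF-NSG hosts, squares for NSG hosts and a bar at the group mean. Slc1a5, Phgdh and Gpt2 are highest at 6 weeks in the bottom row, while SLC1A5, PHGDH and GPT2 are highest in naive tumours in the top row.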

How the data were processed

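Total RNA of the xenografts was extracted with TRIzol and sequenced in bulk, per the labels' protocols, and reads were mapped to the human and separately to the murine genome, per the series' design text. The submitters' processing notes name DESeq2, GRCh38, hg38 and mm10 without a role, while for the aligner, counter, annotation and use of strand the sources used here give nothing. The values are FPKM per gene as deposited by the authors, 58735 human and 54532 mouse genes. Whole reads were recovered from the FPKM steps of each library (100% whole within a tolerance of 0.05). The mouse values of NSG 6 weeks replicate 4 and NSG naive replicate 2 were not analysed.

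Genes that reached 1 FPKM in 3 samples were tested with limma 3.58.1 in R 4.3.3 on log2(FPKM + 1), with a mean for each group and all samples in the fit, a mean-variance trend, two-sided tests, Benjamini-Hochberg adjustment over all tested genes within each comparison (16029 human, 14287 mouse) and a threshold of 0.05. On simulated data the fit was tested for recovery of known changes. Alternatives were no filter, a pseudocount of 0.1, median ratio scaling, the replicate number as a block, limma voom on the recovered reads, and leaving out each library. Scaling by total reads was added after seeing the data. Mouse genes were matched by symbol. Of each further list up to 4 genes called the same way in both hosts, with the largest smaller change, were named by rule; some of them are described, the others count in the totals, and a few are not reported here. The members and lists were chosen with earlier results of these data known. No pair of replicates agreed within counting noise (chi-square per degree of freedom at least 4.28 for human and 3.95 for mouse reads). Motifs were searched with Python 3.11.15, and figures were drawn with matplotlib 3.10.9.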

Additional observations from a re-analysis of the deposited data

Results flagged for a closer look

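In 9 of 208 groups of 4 libraries screened, 1 library stood far from the others of its group by Dixon's gap ratio, a test that chance passes in about 1 group in 20. Among human members, NSG 2 weeks replicate 2 had 27.2 FPKM of SLC3A2, against 20.8 to 21.24 in the others, and hHGF-NSG 2 weeks replicate 4 had 72.35 FPKM of SLC1A5, against 57.61 to 60.04. NSG 2 weeks replicate 1 had 1.324 FPKM of SLC6A9, against 2.865 to 2.991, and 287.7 FPKM of XBP1, against 265.1 to 268. SHMT2 stood at 16.88 FPKM in NSG 6 weeks replicate 3, against 12.23 to 12.92, and CHAC1 at 1.448 FPKM in hHGF-NSG 2 weeks replicate 4, against 1.764 to 1.825. Among mouse genes, Mthfd2 stood at 2.54 FPKM in NSG 2 weeks replicate 2, against 3.733 to 3.843. Aldh18a1 stood at 15.93 FPKM in hHGF-NSG 2 weeks replicate 1, against 8.916 to 9.348, and Hspa5 at 187.9 FPKM in hHGF-NSG 2 weeks replicate 4, against 134.9 to 140.4.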

How the results depend on the processing

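Counts of members called against naive stayed within 1.5 times of the reported ones under every alternative, at 22 to 27 of 34. Against 2 weeks, the hHGF-NSG count at 6 weeks was 3, became 1 without the filter on low values and ranged from 1 to 5 without 1 library. Without 1 library the count between naive hosts ranged from 0 to 1, as did that of the difference in response at 6 weeks. The mouse counts without 1 library were 4 to 8 in NSG and 2 to 9 in hHGF-NSG hosts at 2 weeks, and 9 to 12 in hHGF-NSG hosts at 6 weeks. Of 153 human gene results, 1 changed its call under a pseudocount of 0.1, 7 without the filter, 0 under median ratio scaling, 1 under voom, 17 under scaling by total reads, and 17 without some library. Median ratio scaling left the human values nearly as deposited, so its 0 is no separate check. At 2 weeks in NSG hosts the median log2 change of all genes was 0.0251 with it and 0.0252 without it. Scaling by total reads also turned the sign of 14 small changes, none of which passed: SLC38A2 0.13, PSPH 0.12, ATF5 0.17, DDIT3 0.0406, PPP1R15A 0.19 and DNAJB9 0.13 in NSG hosts at 2 weeks, SLC38A2 0.22, ATF5 0.21 and PPP1R15A 0.13 in NSG hosts at 6 weeks, SLC1A4 0.0504, SLC38A1 0.17, PSPH 0.19 and PPP1R15A 0.19 in hHGF-NSG hosts at 2 weeks, and ATF4 0.0335 in hHGF-NSG hosts at 6 weeks. The cause was not tested.

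Deviations of same-numbered replicates from their group means had correlations of -0.178 to 0.265, with 2 of 3 pairs over 0.1 between the naive hosts. Pairs of different numbers were not set beside them, so whether the numbers pair the samples cannot be told. With the replicate number as a block, 24 and 25 members were called at 2 weeks in hHGF-NSG and NSG hosts and 25 and 25 at 6 weeks, 2 and 12 between 6 and 2 weeks, and 0 between hosts. The 4 human calls it ended were HERPUD1 in hHGF-NSG hosts at 2 weeks and in NSG hosts at 6 weeks, and between 6 and 2 weeks DDIT3 in hHGF-NSG and PDIA4 in NSG hosts (adjusted p 0.0648, 0.0716, 0.0899 and 0.0731). In the mouse table the block gave 5 and 6 at 2 weeks and 13 and 11 at 6 weeks. Depth limits ASNS, at 2 to 59 reads per library, and the mouse genes with few naive reads.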
